A study of Bos taurus with 3 samples.

Results

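The miR-29 family was described in small RNA libraries of large dense-core vesicles, the organelles in which chromaffin cells of the adrenal medulla store catecholamines and peptides until release. Its members were taken by name from the deposited count table: every row whose base name, without species prefix, identifier and arm, was miR-29a, miR-29b, miR-29c, miR-29d or miR-29e. This gave 8 of 919 rows, or 6 of 793 mature miRNAs, on 6 hairpins. The vesicles were purified from bovine chromaffin cells of slaughterhouse cattle, with no treatment, age, sex or strain in the labels. The series has 3 libraries from 500 ng of RNA each: a pair labelled as technical replicates, here T1 and T2, and a biological replicate, here B1. Values for the 3 libraries are given in the order T1, T2 and B1. The labels do not say which step was repeated in the technical pair or how many animals gave each preparation. T1 and T2 were therefore averaged to stand for 1 preparation, and each mean ± SD is over n = 2 preparations. Whole cells and other fractions were not analysed here, so the values show neither enrichment in vesicles nor a place inside them.

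miRNAs guide Argonaute proteins to partly complementary messenger RNAs, mostly through the seed near the 5′ end. The 3p members of the miR-29 family are known to share their seed, and so to share most predicted targets. The family is best known for repressing collagens and other matrix genes in fibroblasts, and also acts on DNA methyltransferases DNMT3A and DNMT3B. In neurons it rises with maturation and restrains pro-apoptotic BH3-only genes. In pancreatic beta cells, another type of secretory cell, miR-29 is known to repress the lactate transporter Mct1 and the exocytosis protein syntaxin 1A.

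With each mature miRNA entered once, total counts were 5546771, 6251664 and 6708654 in T1, T2 and B1. Levels are given in CPM, counts scaled to a common total, and a count of 0 would allow up to 0.447 to 0.541 CPM (3 counts). The endocrine miRNA miR-375 held 381396, 358079 and 416586 CPM. Markers of other cell types are given beside the comparison of preparations. Intervals and limits cover counting error only. No molecular identifiers are named in the labels, so reads copied from 1 molecule cannot be told apart and the intervals may be too narrow. CPM of different miRNAs are shares of reads and were not corrected for how well each miRNA is captured.

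The family as a whole made up about 1 in 100 miRNA counts. Its summed share was 1.09% in T1 (exact Clopper-Pearson 95% interval 1.08 to 1.10%), 1.04% in T2 (1.03 to 1.04%) and 0.778% in B1 (0.772 to 0.785%). The technical libraries thus lay close together and B1 lay below both. The mean was 0.92% ± 0.20 (SD, n = 2).

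miR-29a (MIMAT0003518), the broadly expressed member of the family, was the main form. It had 53082, 56603 and 47063 counts. These equal 9570, 9054 and 7015 CPM, with a mean of 8164 ± 1624 CPM (SD, n = 2). miR-29a ranked 19, 20 and 21 among the 793 mature miRNAs in the 3 libraries. By mean level it stood just below miR-23b-3p (9020 ± 1032 CPM) and miR-25 (9008 ± 1482 CPM), and just above miR-140 (7363 ± 2217 CPM) and let-7g (6478 ± 24.4 CPM). Its range of mean ± SD overlapped that of the first 3 of these neighbours and not that of let-7g, so its place in the order is approximate. Of these, miR-23b-3p and miR-140 were, like miR-29a, lowest in B1, miR-25 was highest there and let-7g lay between T1 and T2.

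miR-29c (MIMAT0003829) came next, with 729, 695 and 384 CPM, a mean of 548 ± 232 CPM. Its mean was 14.9 times lower than that of miR-29a. Its rank was 80 and 84 in the technical libraries and 104 in B1. The nearest miRNAs in level were miR-9-5p and miR-382 above it and miR-495 and miR-330 below it, at means from 499 to 564 CPM. Those 4 had their highest CPM in B1, whereas miR-29c had its lowest there.

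miR-29b (MIMAT0003828), which is known for a 3′-terminal element linked to nuclear location in cultured cells, was lower again. It had 342, 367 and 236 CPM, with a mean of 295 ± 83.8 CPM, 27.6 times lower than miR-29a. Its ranks were 114, 114 and 122. The means of miR-29b and miR-29c were not further apart than their SDs reach, but miR-29c was the higher in each of the 3 libraries. miR-30b-5p and miR-652 stood just above miR-29b and miR-19b and miR-7859 just below, at means from 271 to 302 CPM. All of these but miR-7859, which was highest in B1, were lowest there, as miR-29b was.

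miR-29d is a cattle-annotated member with both arms in the table. miR-29d-5p (MIMAT0026919) had 121, 134 and 96.7 CPM, a mean of 112 ± 21.7 CPM. miR-29d-3p (MIMAT0009275) had 104, 105 and 50.1 CPM, a mean of 77.5 ± 38.7 CPM. miR-29d-5p was higher than miR-29d-3p in every library, and their mean ± SD ranges overlapped. Because miR-29d-5p is also listed on mir-29c with identical counts, this gives no order of the arms of mir-29d. Around the 5p arm stood miR-3432a, miR-654, miR-424-5p and miR-6119-5p (108 to 117 CPM on average). Around the 3p arm stood miR-574, miR-136, miR-1388-5p and miR-22-5p (73.2 to 79.4 CPM). The neighbours of the 3p arm were all lowest in B1 too, as were those of the 5p arm except miR-654, which was highest there. miR-29e (MIMAT0009953) was near the floor, with 2, 7 and 4 counts, or 0.36, 1.12 and 0.60 CPM, and did not enter the test below. With so few counts, no order of the libraries can be read for miR-29e.

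**Figure D1:**
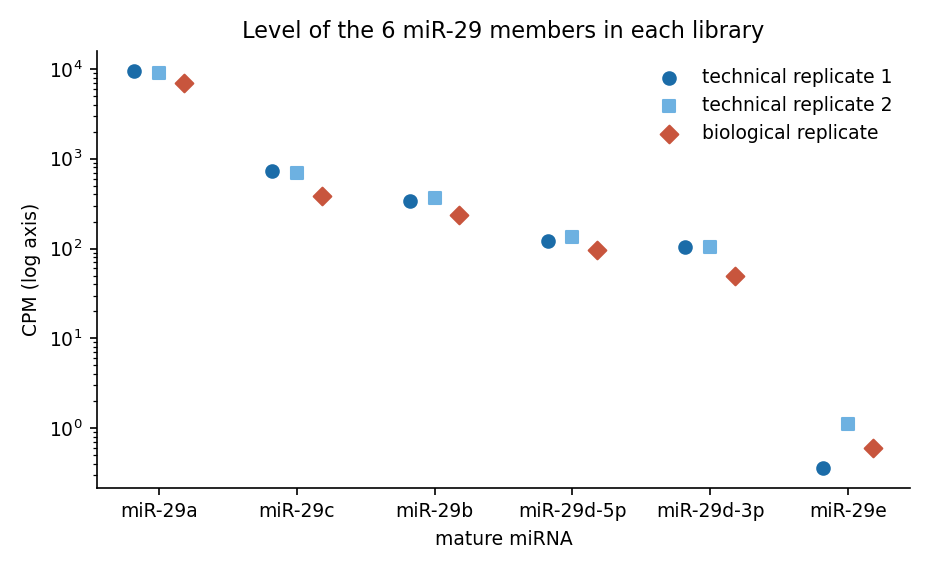
CPM (log axis) of the 6 mature miR-29 members, with 1 point per library: circles and squares for T1 and T2 and diamonds for B1. miR-29a lies between 7015 and 9570 CPM, the 4 next members between 50.1 and 729 CPM and miR-29e near 1 CPM, and for the first 5 B1 is the lowest.

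In RefSeq's gene table for the assembly ARS-UCD2.0, which is not the build named in the submitters' processing notes and served only for names and neighbours, all 6 hairpins were found. MIR29A and MIR29B-1 are neighbours spanned by the same long non-coding RNA gene, LOC107131356. MIR29B-2 and MIR29C are neighbours with no other gene between them. On the same chromosome as these, and beyond CD46, MIR29E and MIR29D lie within the protein-coding gene LOC518224. Mean levels of miR-29a and miR-29b, which have an adjoining pair of hairpins, differed by 27.6 times. The other hairpin of miR-29b adjoins that of miR-29c, and the mean ± SD ranges of these 2 members overlapped. Within each library, however, miR-29c was the higher, with miR-29b at 31.9%, 34.6% and 38.1% of their joint counts. miR-29e was near 0 beside a hairpin, mir-29d, with 579, 658 and 336 counts of its 3p arm.

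Several members could not be assigned to a single hairpin. miR-29b is listed on mir-29b-1 and on mir-29b-2, with 1896 and 1897 counts in T1, 2296 and 2294 in T2, and 1583 on both in B1. The rows differed by at most 2 counts, or 0.087%. miR-29d-5p is listed on mir-29c and on mir-29d with identical counts of 670, 838 and 649. Such rows would arise if a read was entered at every hairpin it fits, so each member was counted once. How much miR-29b comes from the miR-29a neighbourhood or the miR-29c neighbourhood cannot be told apart in these counts. The table lists no opposite arm for mir-29a, mir-29b-1, mir-29b-2 or mir-29e. Because the 3p members are known to be near copies of each other, reads may also be split unevenly between names.

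The mix of members differed between the preparations. miR-29a held 88.1% of the family's counts in T1 (exact 95% interval 87.8 to 88.3%), 87.4% in T2 (87.2 to 87.7%) and 90.1% in B1 (89.9 to 90.4%). Its share was thus highest in B1, by more than the gap within the technical pair. miR-29c held 6.71% in T1 (6.51 to 6.92%), 6.72% in T2 (6.52 to 6.91%) and 4.94% in B1 (4.75 to 5.12%). The technical libraries gave nearly the same share of miR-29c and B1 a lower one. miR-29d-3p showed the same, at 0.961%, 1.02% and 0.644%.

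For the other members, the shares of T1 and T2 were further apart than their mean was from B1. miR-29b held 3.15%, 3.55% and 3.03% of the family. B1 was the lowest, close to T1. miR-29d-5p held 1.11%, 1.29% and 1.24%, so that B1 lay between the technical ones. Counted against miR-29a alone, miR-29c was 7.08% and 7.13% of both in the technical libraries and 5.19% in B1. The share of miR-29b among miR-29a and miR-29b was 3.45%, 3.90% and 3.25%. These shares were not tested, and their intervals describe counting error in single libraries.

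**Figure D2:**
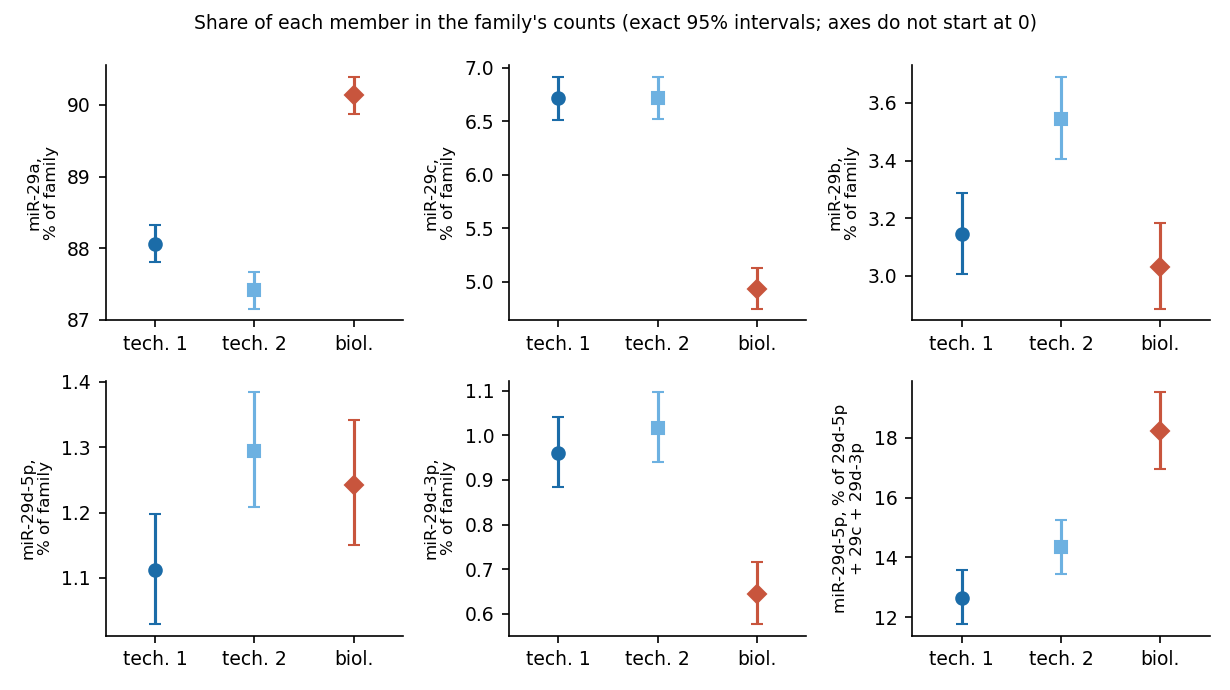
Share (%) of each member in the family's counts, and of miR-29d-5p among miR-29d-5p, miR-29c and miR-29d-3p, in the 3 libraries, with exact 95% intervals for counting error; the axes do not start at 0. The technical libraries agree for miR-29c (6.71% and 6.72%) and B1 is lower (4.94%), while for miR-29b and miR-29d-5p T1 and T2 are further apart than their mean is from B1.

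The 5p arm of the mir-29c and mir-29d hairpins took a larger share of their counts in B1. miR-29d-5p, the 5p arm of both, made up 12.7% of its counts plus those of the 3p arms miR-29c and miR-29d-3p in T1 (exact 95% interval 11.8 to 13.6%). The share was 14.3% in T2 (13.5 to 15.3%) and 18.2% in B1 (17.0 to 19.5%). It was highest in B1, and it also differed within the technical pair. Between the 3p arms, miR-29d-3p was 12.5%, 13.1% and 11.5% of miR-29c plus miR-29d-3p, with overlapping intervals in the 3 libraries. On mir-29c, the log2 fold change between preparations, described next, of the less abundant arm miR-29d-5p minus that of miR-29c was 0.49. On mir-29d as listed, miR-29d-3p is the less abundant arm, and the difference, now of the 3p minus the 5p arm, was -0.67. Both differences use the same miR-29d-5p counts, so they are not independent, and the true order of arms on mir-29d is not known. On both hairpins the 5p arm had the less negative fold change. Over 37 distinct pairs of arms from a common hairpin with both arms tested, the median of this difference was -0.22 and the median of its size was 0.49. Of the 37 pairs, 8, with mir-29c included, lay at 0.49 or above, and 19 differed by at least that much in either direction. Each fold change came from the mature miRNA's row with the highest total, which can lie on another hairpin. On mir-2285o-3, among the 8, the less abundant arm held 49.5%, 50% and 50% of counts, yet the difference was 1.12. Some pairs share an arm, as miR-376c was paired with miR-376b and with miR-376e. On mir-2313 the less abundant arm was at 0% in B1 and the difference was -4.12. The medians and counts are therefore only a rough background for mir-29c. The differences between arms were not tested.

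The replicates allow the comparison of a library from another preparation with the technical pair. All 5 members with at least 10 counts in a library were lowest in B1. In CPM, 59.1% of the 367 miRNAs tested were also below both technical libraries there, and 40.3% with TMM scaling, a scaling that assumes most miRNAs do not differ. In edgeR's quasi-likelihood test with TMM scaling, 3 of these 5 members fell in B1, 2 did not pass and none rose (Benjamini-Hochberg adjusted p below 0.05 over all 367). In the same fit 37.9% of all miRNAs passed and 20.2% passed and were lower, 65 higher and 74 lower. With library totals in place of TMM this split became 24 higher and 86 lower. The median log2 fold change was -0.41 over the 5 members and 0.01 over all 367, and with library totals these were -0.59 and -0.17.

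miR-29d-3p had the lowest fold change of the family. With TMM scaling it had 102, 99.4 and 54.5 CPM. Its log2 fold change of -0.88 ± 0.14 (SE) passed the edgeR test (adjusted p = 1.87e-08), and 30 of 367 miRNAs had a lower one. Between the technical libraries it differed by 0.03 on the same log2 scale, and before TMM by 0.01 with a counting interval from -0.15 to 0.18.

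miR-29c had 710, 657 and 418 CPM with TMM scaling. It fell by 0.71 ± 0.10 (SE) on the log2 scale (edgeR, adjusted p = 2.14e-10), to 61.1% of the technical level, and 39 miRNAs had a lower fold change. The technical libraries were 0.11 apart on that scale. In CPM without TMM they were 0.07 apart, against a median of 0.09 over the 167 miRNAs of at least 100 CPM on average. Over all 367 miRNAs, with 1 CPM added to each level, the median was 0.11.

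miR-29b had 333, 347 and 257 CPM with TMM scaling. Its log2 fold change was -0.41 ± 0.11 (SE), which passed (edgeR, adjusted p = 7.35e-04), against 0.06 between the technical libraries. It fell to 75.5% of the technical level, and 82 miRNAs had a lower fold change.

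miR-29a, which holds most of the family's counts, did not pass. Its TMM-scaled levels were 9319, 8552 and 7628 CPM. The log2 fold change was -0.23 ± 0.11 (SE) (edgeR, adjusted p = 0.087), and the technical libraries alone were 0.12 apart. With library totals miR-29a passed, at -0.41 (edgeR, adjusted p = 0.021), as it did in a fit of miRNAs of at least 100 CPM only, at -0.38 (edgeR, adjusted p = 0.0022). Over the 8 tested alternatives its adjusted p ranged from 0.0022 to 0.15.

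miR-29d-5p had 118, 127 and 105 CPM with TMM scaling and a log2 fold change of -0.22 ± 0.13 (SE), which did not pass (edgeR, adjusted p = 0.18). It differed by 0.11 between the technical libraries. It passed only in the fit of miRNAs of at least 100 CPM, at -0.36 (edgeR, adjusted p = 0.036), and its adjusted p ranged from 0.036 to 0.45 over 8 alternatives. With library totals 4 of 5 members passed and were lower, against 23.4% of all miRNAs, and at 100 CPM or more 4 of 4 did, against 26.3%.

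**Figure D3:**
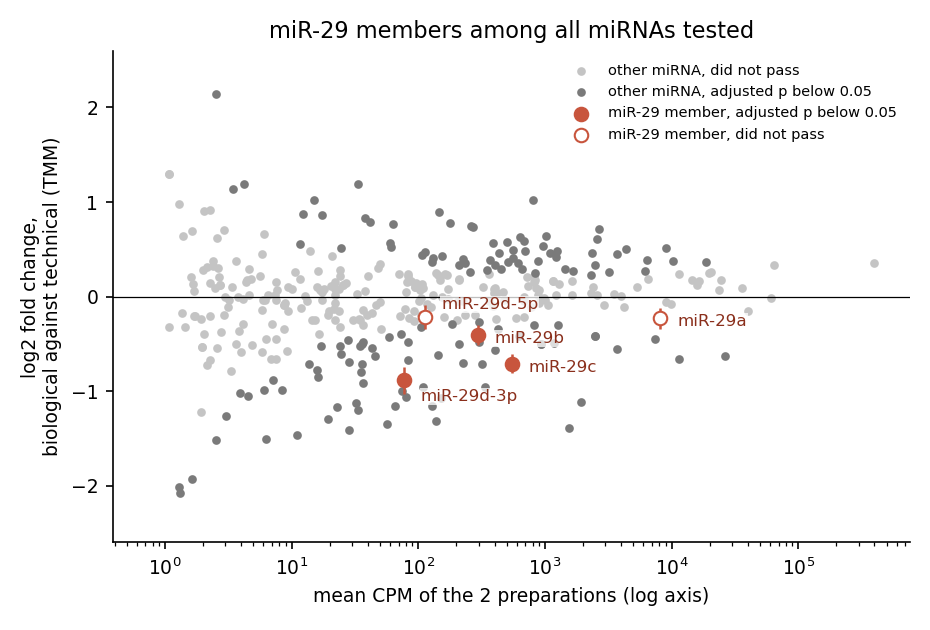
Log2 fold change of B1 against the technical pair (edgeR, TMM) over the mean CPM of the preparations (log axis) for the 367 miRNAs tested, with the 5 tested miR-29 members in red (bars: SE; filled: adjusted p below 0.05) and the other miRNAs in grey; 1 miRNA lies outside the axis. All 5 members lie below 0, from -0.22 to -0.88, among many other miRNAs that passed in either direction.

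Only T1 and T2 gave this test its spread (1 residual degree of freedom for each miRNA), edgeR pooled that spread fully over all 367 miRNAs, and B1 was taken to vary in the same way. With DESeq2's size factors in edgeR, where the spread was pooled only in part, the adjusted p was 0.0053 for miR-29c, 0.0051 for miR-29d-3p and 0.017 for miR-29b. The p-values therefore compare these libraries and not animals, and are used as a threshold only.

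**Figure D4:**
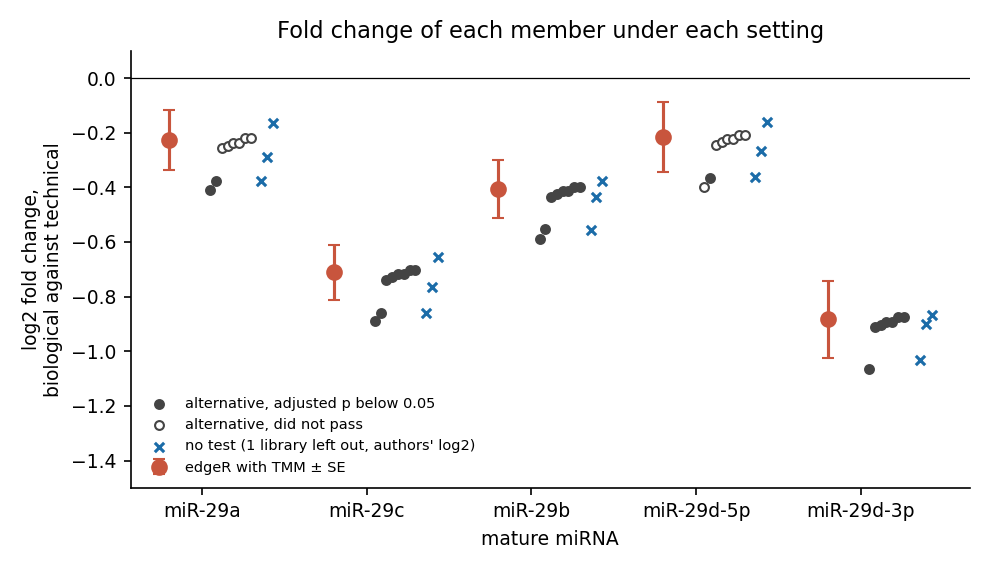
Log2 fold change of the 5 tested members (biological against technical) in edgeR with TMM (red, ± SE) and under each alternative (grey: tested, filled where adjusted p is below 0.05; blue crosses: values with no test). Each value is below 0, and miR-29b, miR-29c and miR-29d-3p pass under every tested alternative that includes them.

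Several miRNAs known from vessel wall, connective tissue and leukocytes also fell in B1, as did 20.2% of all miRNAs tested. The smooth muscle and fibroblast miRNAs (miR-143, miR-145, miR-199a, miR-199b, miR-199c and miR-214) summed to 1.98%, 2.19% and 1.22% of counts, and 6 of 7 fell, with miR-199c and miR-199a-3p at identical counts and so entered 2 times in the sum. Of these, miR-143 had 13713, 15657 and 8206 CPM, and miR-145 had 14, 12 and 11 counts. The endothelial arms of miR-126 summed to 0.182%, 0.189% and 0.113%, and 2 of 2 fell. The leukocyte miRNAs (miR-142, miR-146a, miR-150, miR-155 and miR-223) summed to 0.0281%, 0.0280% and 0.0123%, and 2 of 5 tested fell in edgeR and 1 in DESeq2. miR-223 had 7, 6 and 7 counts, and no marker was at 0 in every library. The endocrine miRNAs miR-375 and miR-7 did not pass in edgeR (0 of 2, and 0 at an unadjusted p below 0.05), while miR-375 passed in DESeq2 (log2 fold change 0.34, adjusted p = 0.0059), with sums of 44.1%, 42.8% and 47.3%. The part of these other cell types, or of the number of vesicles or cells behind each preparation, in the lower miR-29 values was not tested. In RNA from a whole vesicle preparation, fewer vesicles or cells of a type and less RNA in each cannot be told apart.

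miR-29 held fewer counts than let-7 and miR-30, the 2 families set beside it. let-7 held 2.86%, 3.08% and 3.29% of counts and miR-30 held 2.64%, 2.54% and 2.45%. Of 9 let-7 members 5 rose, against 17.7% of all miRNAs tested, and none fell, with fold changes from 0.08 to 0.45 on the log2 scale. Of 7 miR-30 members 4 fell, against 20.2% of all miRNAs, and none rose, from -0.55 to 0.25. The 5 miR-29 members spanned -0.88 to -0.22. With library totals, 0 of the let-7 members passed in edgeR (2 at an unadjusted p below 0.05), with values from -0.11 to 0.27. With that scaling 3 of the miR-30 members fell, against 23.4% of all miRNAs. In DESeq2 with its own size factors, 4 let-7 members rose, as did 42 of the 310 miRNAs given an adjusted p. The differences between families were not tested.

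The miRNAs whose pattern over the 3 libraries lay nearest to a member were found by Euclidean distance of log2(CPM + 1), centred on each miRNA's mean, among 163 miRNAs of at least 100 CPM on average. Nearest to miR-29a was miR-19b (327, 311 and 246 CPM, distance 0.027), followed by miR-22-3p, miR-369-3p, miR-21-5p and miR-652 (distances 0.058 to 0.089). Of these 5, only miR-652 passed the edgeR test. Nearest to miR-29c was miR-126-5p (429, 397 and 223 CPM, distance 0.030), followed by miR-101, miR-195, miR-135a and miR-30a-5p (0.077 to 0.146), all 5 of which passed. In that fit 37.9% of all miRNAs passed. The neighbours were picked by the same values that were tested, so whether they passed follows largely from that choice. With 3 libraries a pattern consists of 2 differences, and such likeness is a description of these libraries.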

How the data were processed

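The deposited count table holds raw counts per mature miRNA and hairpin for 3 libraries, made with the NEBNext small RNA set per the labels' protocols. The submitters' processing notes name the build UMD3.1 and the package edgeR. No aligner, counter or miRBase version is given in the sources used here. The authors' CPM columns equal count over column total within rounding. The authors' log2 table (459 rows) equals log2(CPM + 0.1) over rows above 1 CPM in at least 2 libraries, and served only as an alternative.

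Of several hairpin rows of a mature miRNA, the one with the highest total was used. A minimum of 10 counts in 1 or more libraries left 367 miRNAs, which were tested with edgeR 4.0.16 in R 4.3.3 (TMM, quasi-likelihood test, Benjamini-Hochberg adjustment at 0.05), biological against technical. Standard errors come from the fold and the F statistic. DESeq2 1.42.0 was an alternative. Shares carry exact Clopper-Pearson 95% intervals. Depth, 5546771 to 6708654 counts, limits members under about 10 counts. Every member was named, with its 2 neighbours in level on each side (where tested), the marker miRNAs, and the 5 nearest patterns of miR-29a and miR-29c. The members, lists and rules were chosen with earlier results of these data known.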

Additional observations from a re-analysis of the deposited data

How the results depend on the processing

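Under 8 tested alternatives (7 for miR-29d-3p, which has a mean below 100 CPM), 3 or 4 members passed and none of these was higher. The number of members fitted was 4 at 100 CPM or more, 6 with no count filter and 5 otherwise. miR-29e entered only the fit with no count filter, where it did not pass, and its fold change is not given. In these and in 3 values without a test, each of the 5 members tested above had a log2 fold change below 0. The values without a test came from leaving out each technical library, with the TMM factors kept, and from the authors' log2 values. The ranges were -0.41 to -0.16 for miR-29a, -0.89 to -0.65 for miR-29c, -0.59 to -0.38 for miR-29b, -0.40 to -0.16 for miR-29d-5p and -1.07 to -0.87 for miR-29d-3p. Over all miRNAs, 139 of 367 passed (37.9%), against 84 with DESeq2 and 110 with library totals. When only the 167 miRNAs of at least 100 CPM were fitted, 70 passed, and with every hairpin row kept 178 of 464 did. Because the number fitted differs, the last 2 counts cannot be set against 139 without their totals. DESeq2 gave an adjusted p for 310 of the 367 miRNAs; the cause of its lower count was not tested. The family's mean share of 0.92% was 1.51% with miR-375 left out of the total. With rows summed over hairpins, which enters miR-29b and miR-29d-5p at each hairpin, the mean share in the family was 85.2% for miR-29a, 6.11% for miR-29b and 2.34% for miR-29d-5p. With a technical library left out, the share of miR-29d-5p was 1.18% to 1.27%, against 1.22%. Leaving out a library gives no test, since 2 libraries leave no residual degree of freedom. No paired analysis was possible because the labels give no pairing of the libraries. Depth limits miR-29e, at 2 to 7 counts.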
